A study of Mus musculus with 46 samples.

Results

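The cell cycle genes described here are 44 genes taken from a list of gene symbols, out of 55487 genes in the count tables. Of these, 28 act in mitosis or drive mitotic transcription, and 16 act at the G1/S boundary or in DNA replication. The list is one of known cell cycle genes, proposed with earlier results of these data known. Each symbol was joined to its Ensembl identifier, and all 44 were found as protein-coding genes.

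The samples were liver and white fat (white adipose tissue, WAT) taken from wild-type C57BL/6 mice of both sexes with diet-induced obesity. All groups ate a high-fat diet for 21 weeks from 7 weeks of age, controls included. From week 16 they were injected under the skin each day for 5 weeks with vehicle (phosphate-buffered saline) or with PTP-r at 1 mg/kg. The name PTP-r is not explained in the labels, and the series is titled after a peptide of mixed chirality against prohibitin. For each organ there were 6 libraries from females given PTP-r, 6 from females given vehicle, 6 from males given PTP-r and 5 from males given vehicle, named below by their number. No lean or untreated animals are among the groups used here, and which fat depot was taken is not given. They do not state that each library came from its own mouse, and p-values therefore rest on differences among libraries that may be technical.

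Liver libraries held 20266425 to 57518893 counts on genes and WAT libraries 20991069 to 32219751. No 2 libraries of the same group agreed within sampling noise, and pairs across groups were not compared. Markers of other tissues stood out in 10 libraries: skeletal muscle in female livers 11 (PTP-r) and 12 (vehicle) and in WAT of female PTP-r 1 and 5 and male vehicle 3, exocrine pancreas in female PTP-r liver 1, epididymis in WAT of male PTP-r 1 and 2 and male vehicle 9, and lymphoid tissue in WAT of male PTP-r 7. Without them the mitotic median in liver with PTP-r, given below, was 0.85 instead of 0.79, over 28 instead of 27 members tested. The number called was 15 either way, but not for the same set, as Ndc80 lost its call. The count for sex in WAT was 38 instead of 40, and that for PTP-r as the mean of both sexes in WAT 0 instead of 4.

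A dividing cell first passes from G1 into S phase, driven by D- and E-type cyclins and by E2F transcription factors, which switch on the genes for copying DNA. The MCM proteins, loaded by Cdc6 and Cdt1, unwind DNA, Pcna clamps the polymerase, and Rrm2, Tyms and Tk1 supply nucleotides. Later, B-MYB (Mybl2) and Foxm1 switch on the mitotic genes, whose promoters often carry a short element called the cell cycle genes homology region (CHR) and CCAAT boxes. Their products condense chromosomes, attach them to the spindle, check that attachment and cut the cell apart. Hepatocytes and mature adipocytes of adults seldom divide, so in tissue RNA these genes can also come from immune, endothelial and stromal cells.

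Both arms of the list can be seen in promoter sequence. RefSeq promoter windows on GRCm38.p6, from 250 bases before to 50 bases after the start site, were at hand for 35 of the 44 members, 22 mitotic and 13 G1/S and replication. The 5 below were chosen because Kif23, Mki67 and Cdk1 are mitotic genes that changed in liver, and Mcm6 and Cdc6 belong to the replication arm. Capitals mark CHR elements (TTTGAA, with TTCGAA as its other accepted form), CCAAT boxes (CCAAT) and E2F elements (TTTGGCGC, TTTCCCGC, TTTCGCGC or TTTGCCGC), on either strand. All 5 are written 5′ to 3′ on the gene's own strand.
Kif23, chr9:61946750-61947049, minus strand: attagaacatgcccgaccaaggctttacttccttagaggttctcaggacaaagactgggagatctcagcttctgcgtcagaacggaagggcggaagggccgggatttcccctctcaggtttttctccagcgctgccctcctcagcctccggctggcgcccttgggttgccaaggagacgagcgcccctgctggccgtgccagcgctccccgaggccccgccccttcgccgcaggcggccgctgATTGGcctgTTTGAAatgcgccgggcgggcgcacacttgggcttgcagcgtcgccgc
Mki67, chr7:135716330-135716629, minus strand: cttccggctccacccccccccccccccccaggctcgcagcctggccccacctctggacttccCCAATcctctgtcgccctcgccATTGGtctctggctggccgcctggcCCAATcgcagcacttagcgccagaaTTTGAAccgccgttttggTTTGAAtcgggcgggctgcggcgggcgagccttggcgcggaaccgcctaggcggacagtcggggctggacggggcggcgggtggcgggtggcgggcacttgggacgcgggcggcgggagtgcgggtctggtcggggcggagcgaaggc
Cdk1, chr10:69352863-69353162, minus strand: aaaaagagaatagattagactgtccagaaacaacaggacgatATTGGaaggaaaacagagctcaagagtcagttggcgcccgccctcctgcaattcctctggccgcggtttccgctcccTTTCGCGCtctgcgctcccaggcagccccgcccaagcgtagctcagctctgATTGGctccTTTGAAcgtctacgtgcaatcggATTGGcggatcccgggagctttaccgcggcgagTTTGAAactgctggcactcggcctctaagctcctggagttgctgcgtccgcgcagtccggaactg
Mcm6, chr1:128359656-128359955, minus strand: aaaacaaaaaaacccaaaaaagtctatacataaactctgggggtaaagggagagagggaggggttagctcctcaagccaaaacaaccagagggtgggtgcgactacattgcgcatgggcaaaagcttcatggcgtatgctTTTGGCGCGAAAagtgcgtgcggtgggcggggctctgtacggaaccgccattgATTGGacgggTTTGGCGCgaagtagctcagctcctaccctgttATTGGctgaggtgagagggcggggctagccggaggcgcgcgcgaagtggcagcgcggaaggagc
Cdc6, chr11:98907901-98908200, plus strand: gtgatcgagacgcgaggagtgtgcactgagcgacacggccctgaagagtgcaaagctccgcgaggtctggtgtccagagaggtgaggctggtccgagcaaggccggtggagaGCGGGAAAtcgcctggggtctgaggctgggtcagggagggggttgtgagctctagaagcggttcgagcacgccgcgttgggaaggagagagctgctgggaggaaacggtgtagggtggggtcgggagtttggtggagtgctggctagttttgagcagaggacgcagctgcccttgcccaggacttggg

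In Kif23 the CCAAT box, on the opposite strand, lay 7 bases before the start site and the CHR began at the base numbered 3, counting the first transcribed base as 1. Mki67 had 3 CCAAT boxes and 2 CHR elements. Cdk1 had 3 CCAAT boxes and 2 CHR elements, and it was the 1 mitotic member with an E2F element. Mcm6 had no CHR, but 3 E2F elements, of which 2 overlap on opposite strands, and Cdc6 had a single E2F element and neither of the others. The Cdc6 window, set by its RefSeq start site, lies wholly inside the gene as annotated in GENCODE M21. It therefore does not cover the bases before that annotated start.

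A CHR was found in 15 of 22 mitotic members (68.2%), in 2 of 13 G1/S and replication members (Mcm2 and Mcm7), and in 19.2% of all 32851 promoters of the same length. A CCAAT box was found in 16 of 22 mitotic members, in 7 of 13 G1/S and replication members, and in 37.4% of all promoters. An E2F element was found in 1 of 22 mitotic members, in 6 of 13 G1/S and replication members (Mcm3, Mcm5, Mcm6, Mcm7, Cdc6 and Cdt1), and in 2.26% of all promoters. These are matches of letters and do not show binding.

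Under vehicle the list was transcribed at low levels in liver, most of all its mitotic arm. On the scale of reads per kilobase of exon, scaled to library size (RPKM), no mitotic member averaged above 0.547 in either sex of liver. In female livers Cdc20, the activator of the anaphase-promoting complex, averaged 0.438 ± 0.0895 RPKM (SD, n = 6), and in male livers Birc5, the survivin subunit of the chromosomal passenger complex, averaged 0.547 ± 0.119 RPKM (SD, n = 5). Cenpf, a kinetochore protein, was the lowest of the 28 in both sexes, at 0.028 ± 0.00918 RPKM in females and 0.0255 ± 0.0166 RPKM in males. The median mitotic member thus rests on few reads: a liver library held a median of 90 reads for Mki67, 66 for Top2a, 35 for Kif23, 29 for Cdk1 and 8 for Bub1.

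The G1/S and replication arm was spread far more widely. Ccnd1, cyclin D1, averaged 25 ± 9.04 RPKM in female and 7.21 ± 1.72 RPKM in male livers, and the sliding clamp Pcna 11 ± 0.854 and 12.8 ± 0.525 RPKM. Tk1, thymidine kinase 1, averaged 9.94 ± 2.42 and 7.33 ± 3.13 RPKM. Cdc6, the loader of the MCM ring, was the lowest at 0.0629 ± 0.0268 and 0.0375 ± 0.0114 RPKM.

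WAT held more mitotic RNA than liver. All 28 mitotic members were lower in liver than in WAT under vehicle (median log2 difference -2.53), where 43.8% of 19135 genes tested were lower and 40.2% higher. A call here and below means an adjusted p under 0.05 in edgeR's quasi-likelihood test, with Benjamini-Hochberg adjustment over all genes tested. Tpx2, a spindle assembly factor, differed by -3.08 (SE 0.261, edgeR adjusted p = 2.77e-14), and Ube2c, the ubiquitin-conjugating enzyme of the anaphase-promoting complex, by -2.86 (SE 0.166, edgeR adjusted p = 1.07e-19). Of the 16 G1/S and replication members, 10 were lower in liver, 3 were higher and Cdt1, Mcm7 and Rrm2 did not pass. The lower ones included Cdc6 at -2.94 (SE 0.196, edgeR adjusted p = 1.27e-17) and the transcription factor E2f1 at -2.01 (SE 0.0978, edgeR adjusted p = 2.44e-22).

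The 3 members higher in liver were Tk1 at 3.49 (SE 0.242, edgeR adjusted p = 4.72e-17), Tyms, thymidylate synthase, at 0.76 (SE 0.0666, edgeR adjusted p = 7.37e-14) and Ccnd1 at 0.63 (SE 0.137, edgeR adjusted p = 5.58e-05). The value for Ccnd1 averages over sexes that went opposite ways: females had 25 ± 9.04 RPKM in liver and 6.57 ± 1.11 in WAT (SD, n = 6), and males 7.21 ± 1.72 in liver and 11.4 ± 2.29 in WAT (SD, n = 5). Tk1 overlaps Gm20708 on the opposite strand over nearly its whole length, and Cdt1 lies inside the same-strand gene Gm20388, so their reads are less surely their own. Aurka, a mitotic kinase of the spindle poles, was lower in liver at -1.88, but with counts taken without regard to strand the difference turned to 0.51. The liver markers albumin, apolipoproteins and other hepatocyte genes summed to at least 92670 CPM (counts scaled by library size) in every liver library and to at most 538.5 CPM in WAT. The adipocyte list, which includes adiponectin and perilipin 1, summed to at least 13960 CPM in every WAT library and to at most 30.9 CPM in liver.

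**Figure D1:**
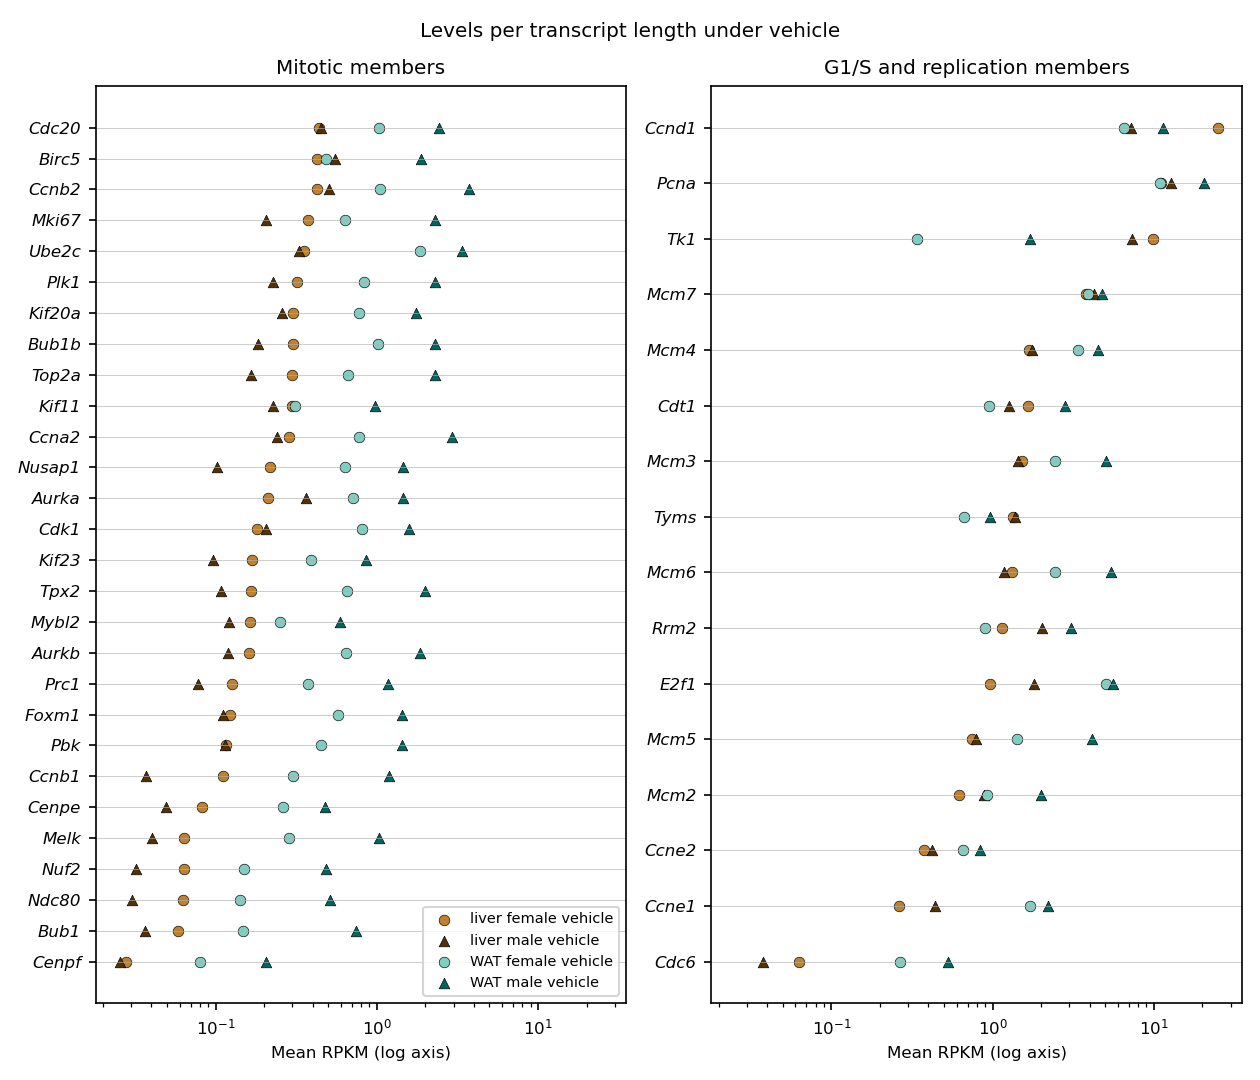
Mean level of each member under vehicle, in RPKM on a log axis, in liver and WAT of females (n = 6) and males (n = 5); circles are females and triangles males. Each mitotic member is higher in male WAT than in every other group, whereas Tk1, Ccnd1 in females and Tyms are higher in liver.

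With PTP-r, mitotic members rose in liver, and no G1/S or replication member of the list passed as the mean of both sexes. Taking the mean of both sexes, 15 of the 27 mitotic members tested rose and none fell, where 5.18% of 15892 genes tested were called higher and 2.4% lower. None of the 16 G1/S and replication members passed with edgeR, with DESeq2 or with limma voom. With edgeR 1 had an unadjusted p under 0.05, as did 3415 of all 15892 genes. The median log2 fold change was 0.79 over the mitotic members, 0.10 over the G1/S and replication members and -0.000834 over all genes tested. All 27 mitotic members tested had a fold change above 0. Fewer cells of a type and less RNA per cell cannot be told apart in bulk tissue, here and in what follows.

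Genes of cytokinesis and the central spindle were among those that rose. Kif23, the motor of the central spindle, lay at 0.64 to 1.41 (median 0.85) CPM in female livers under vehicle and at 1.37 to 2.75 (median 1.85) CPM with PTP-r. In male livers it read 0.494, 0.596, 0.677, 0.442 and 0.569 CPM under vehicle and 0.671 to 1.89 (median 1.31) CPM with PTP-r. In each sex 5 of 6 PTP-r libraries lay above every vehicle library, and the remaining one overlapped. The mean change was 1.07 (SE 0.18, edgeR adjusted p = 0.000507). Prc1, which bundles the microtubules that Kif23 works on, changed by 0.71 (SE 0.188, edgeR adjusted p = 0.0206), Aurkb, the kinase of the chromosomal passenger complex, by 1.21 (SE 0.282, edgeR adjusted p = 0.00808), and its partner Birc5 by 0.50 (SE 0.139, edgeR adjusted p = 0.028). Prc1 overlaps Rccd1 on the opposite strand, and its call was lost with counts taken without regard to strand. Birc5 lost its call without any one of 4 libraries (female PTP-r 8 and 11, male vehicle 4 and 9).

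Aurkb separated the groups in males and not in females. Male vehicle livers read 0.247, 0.379, 0.294, 0.123 and 0.244 CPM and male PTP-r livers 0.423 to 1.26 (median 0.536) CPM, without overlap. Female livers read 0.0673 to 0.619 (median 0.359) CPM under vehicle and 0.336 to 1.38 (median 0.683) CPM with PTP-r, with 3 of 6 PTP-r libraries above every vehicle library.

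The proliferation markers moved in the same direction. Mki67, which coats mitotic chromosomes, lay at 1.08 to 3.9 (median 2.97) CPM in female vehicle and 3.03 to 6.27 (median 3.8) CPM in female PTP-r livers, which overlapped. Male vehicle livers read 1.73, 1.84, 1.71, 1.06 and 1.25 CPM and male PTP-r livers 2.19 to 4.91 (median 3.29) CPM. In males every PTP-r library was above every vehicle library, and the mean change over both sexes was 0.91 (SE 0.195, edgeR adjusted p = 0.00449). Top2a, the topoisomerase that untangles chromosomes, lay at 1.23 to 2.84 (median 1.93) CPM in female vehicle and 2.34 to 4.22 (median 2.89) CPM in female PTP-r livers. It read 0.987, 1.73, 1.24, 0.59 and 0.893 CPM in male vehicle and 0.976 to 3.46 (median 2.3) CPM in male PTP-r livers. The groups overlapped in both sexes, and the mean change was 0.89 (SE 0.207, edgeR adjusted p = 0.00793).

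Of the mitotic cyclins and their kinase, Cdk1 and Ccna2 passed and the B cyclins did not. Cdk1, the kinase that starts mitosis, lay at 0.471 to 0.89 (median 0.653) CPM in female vehicle and 0.757 to 2.05 (median 1.31) CPM in female PTP-r livers. It read 0.741, 0.758, 0.912, 0.516 and 0.785 CPM in male vehicle and 0.774 to 1.81 (median 1.18) CPM in male PTP-r livers. In each sex 4 of 6 PTP-r libraries lay above every vehicle library, and the mean change was 0.85 (SE 0.177, edgeR adjusted p = 0.00344). Ccna2, cyclin A2, changed by 0.81 (SE 0.215, edgeR adjusted p = 0.0204). Ccnb1, cyclin B1, gave a difference of 1.07 (SE 0.359, edgeR adjusted p = 0.0712) and Ccnb2 one of 0.45 (SE 0.227, edgeR adjusted p = 0.262). Ccnb1 was read at 0 in 1 male vehicle liver, and its libraries spread over 0.243 to 1.2 (median 0.524) CPM in female PTP-r livers.

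Spindle checkpoint and kinetochore genes made up much of the rest. Bub1b, which delays anaphase until chromosomes are attached, lay at 0.673 to 1.14 (median 0.986) CPM in female vehicle and 0.979 to 1.47 (median 1.3) CPM in female PTP-r livers. It read 0.617, 0.623, 0.647, 0.467 and 0.514 CPM in male vehicle and 0.74 to 1.91 (median 0.976) CPM in male PTP-r livers, where the groups did not overlap. Its mean change was 0.66 (SE 0.148, edgeR adjusted p = 0.00651). The checkpoint kinase Bub1 changed by 1.18 (SE 0.337, edgeR adjusted p = 0.0313), the kinetochore motor Cenpe by 0.88 (SE 0.217, edgeR adjusted p = 0.0126), Cenpf by 1.10 (SE 0.284, edgeR adjusted p = 0.0169) and the microtubule-binding Ndc80 by 0.79 (SE 0.221, edgeR adjusted p = 0.028). Nuf2, the partner of Ndc80, gave 0.80 and missed the threshold at an edgeR adjusted p of 0.0531. Bub1 is measured from few reads and lost its call in 6 of 23 fits that left out 1 library.

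Among spindle builders, Tpx2 passed at 1.08 (SE 0.234, edgeR adjusted p = 0.00483). Female livers read 0.348 to 0.80 (median 0.579) CPM under vehicle and 0.589 to 1.86 (median 1.04) CPM with PTP-r, and male livers 0.329, 0.596, 0.353, 0.197 and 0.379 CPM and 0.544 to 1.46 (median 0.708) CPM. In each sex 4 of 6 PTP-r libraries were above every vehicle library. Foxm1, the transcription factor of mitotic genes, passed at 0.77 (SE 0.193, edgeR adjusted p = 0.0134), while Mybl2 gave 0.14 (SE 0.194, edgeR adjusted p = 0.746). The other mitotic members that were tested and did not pass lay between 0.22 (Kif11, the bipolar spindle motor) and 0.83 (Pbk, a mitotic kinase), among them Plk1 at 0.53, Nusap1 at 0.71, Ube2c at 0.49, Cdc20 at 0.43, Aurka at 0.33 and Kif20a at 0.31. Melk, a kinase of dividing cells, fell below the filter on low counts in liver and was not tested there. It read 0.0232 to 0.297 (median 0.139) CPM in female vehicle and 0.126 to 0.623 (median 0.248) CPM in female PTP-r livers.

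**Figure D2:**
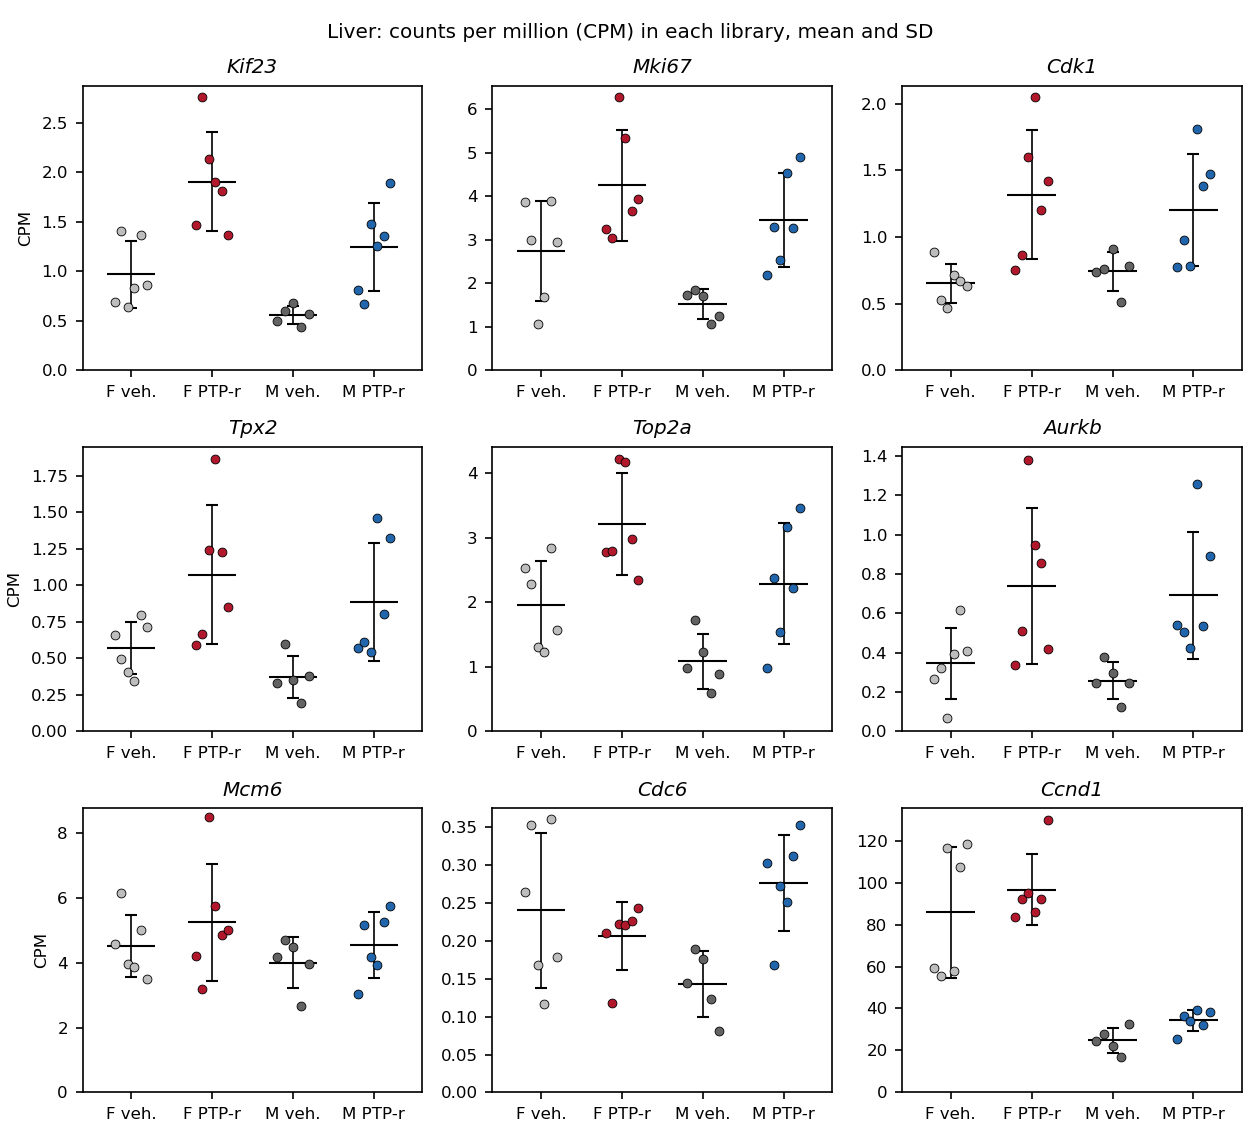
CPM of 9 members in each liver library of females (F) and males (M) under vehicle (veh.) or PTP-r; points are libraries, lines are means and bars are SD (n = 6, and 5 for male vehicle). Mki67 and Aurkb do not overlap in males, Mcm6 overlaps in both sexes, and Ccnd1 is higher in females than in males.

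Summed over the 28 mitotic members, female livers lay at 13.7 to 24.8 CPM under vehicle and 25.1 to 40.83 CPM with PTP-r. Male livers lay at 11.6 to 17.77 CPM and 18.4 to 35.32 CPM. These summed levels did not overlap in either sex, although most single members did. The highest libraries were female PTP-r 5 and 8, which were highest in their group for 12 and 13 of 28 members, and male PTP-r 6 and 11, for 15 and 10.

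Within males alone, 8 mitotic members and Cdc6 rose, where 5.23% of genes were called higher and 2.45% lower. Kif23 changed by 1.18 (SE 0.269, edgeR adjusted p = 0.00683), Bub1b by 0.93 (SE 0.219, edgeR adjusted p = 0.00859) and Mki67 by 1.19 (SE 0.288, edgeR adjusted p = 0.0107), and all 3 kept their call whichever single library was left out. Bub1 at 1.71, Aurkb at 1.39, Tpx2 at 1.25, Cenpe at 1.09 and Top2a at 1.08 did not keep it in all such fits. The count was 3 without male PTP-r library 6, without male PTP-r library 11 and without male vehicle library 12, 4 without male vehicle library 3 or 10, and 5 without male vehicle library 9. Library 6 was also the male liver highest in T and NK cell markers, at 8.50 CPM, and library 11 the highest in macrophage and in B and plasma cell markers, at 194 and 108 CPM. Without the liver highest in lymphocyte markers of each sex, a setting added after the data were seen, the count was 3 and the median of the mitotic members in males 0.74.

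Within females alone, no member passed with edgeR, where 0.0755% of genes were called higher and 0.0881% lower. An unadjusted p under 0.05 was found for 15 mitotic and 2 G1/S and replication members, and for 1378 of all 15892 genes. DESeq2 called 2 mitotic members and limma voom none, and the shares of all genes called by these tests are not given. Of the 27 mitotic members tested, 26 had a fold change above 0, with a median of 0.66, against 0.93 in males. The smallest p-values belonged to Cdk1 at 1.02 (SE 0.246, edgeR adjusted p = 0.0893) and Kif23 at 0.96 (SE 0.24, edgeR adjusted p = 0.105). Cdc20 was the 1 member whose female groups did not overlap, at 0.438 to 0.758 (median 0.609) CPM under vehicle and 0.829 to 1.36 (median 0.936) CPM with PTP-r. Overlap was not counted over all genes, so this count has no share to be set against.

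The difference between the female and male effects was tested directly, and no member passed with edgeR, DESeq2 or limma voom. Of all genes, 0.00629% were called higher in females and 0.101% lower. At an unadjusted p under 0.05, 1 mitotic and 1 G1/S and replication member differed, as did 1588 of all 15892 genes. The smallest p belonged to Cdc6, whose effect was lower in females by a log2 difference of -1.13 (SE 0.408, edgeR adjusted p = 0.294). A liver library held a median of 7 reads for Cdc6. It read 0.116 to 0.361 (median 0.221) CPM in female vehicle and 0.118 to 0.243 (median 0.222) CPM in female PTP-r livers, which overlapped. In males it read 0.144, 0.19, 0.176, 0.123 and 0.0812 CPM under vehicle and 0.168 to 0.352 (median 0.287) CPM with PTP-r, a change of 0.96 (SE 0.297, edgeR adjusted p = 0.0493) that held in 1 of 11 fits leaving out 1 library.

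The replication members are given next. Mcm6, a subunit of the replicative helicase, lay at 3.51 to 6.17 (median 4.28) CPM in female vehicle and 3.19 to 8.49 (median 4.94) CPM in female PTP-r livers. It read 4.17, 4.71, 4.5, 2.68 and 3.98 CPM in male vehicle and 3.03 to 5.76 (median 4.69) CPM in male PTP-r livers. The groups overlapped in both sexes, and the mean difference was 0.21 (SE 0.143, edgeR adjusted p = 0.447). Mcm2, another helicase subunit, lay at 1.93 to 4.41 (median 3.0) CPM and 2.36 to 4.67 (median 3.6) CPM in female livers, and at 4.42, 7.04, 4.47, 2.41 and 3.95 CPM and 2.99 to 5.08 (median 4.14) CPM in male livers, vehicle first. Its mean difference was 0.05 (SE 0.15, edgeR adjusted p = 0.909). Pcna lay at 18.5 to 21.8 (median 18.8) CPM and 17 to 21.6 (median 19.8) CPM in female livers, and at 20.7, 22.1, 23.7, 22.8 and 22.5 CPM and 18.6 to 24.1 (median 22.2) CPM in male livers. Its difference of -0.01 had an SE of 0.0498, a tighter error than that of any mitotic member.

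The G1 cyclins did not pass either. Ccnd1 lay at 55.4 to 119 (median 83.4) CPM in female vehicle and 83.5 to 129.9 (median 92.3) CPM in female PTP-r livers. The 6 female vehicle livers fell apart into libraries 2, 3 and 7 at 59.2, 55.4 and 57.8 CPM and libraries 6, 10 and 12 at 116.5, 107.5 and 119 CPM. Male livers read 24.4, 27.9, 21.9, 16.9 and 32.6 CPM under vehicle and 25.5 to 39.2 (median 35.2) CPM with PTP-r. The mean difference was 0.32 (SE 0.14, edgeR adjusted p = 0.18). Ccne1, cyclin E1, gave 0.25 (SE 0.33, edgeR adjusted p = 0.738), with 0.132 to 1.21 (median 0.483) CPM in female vehicle, 0.378 to 1.51 (median 0.589) CPM in female PTP-r, 0.391, 0.758, 1.41, 0.442 and 1.3 CPM in male vehicle and 0.392 to 1.47 (median 0.694) CPM in male PTP-r livers. The nucleotide enzymes Rrm2, Tk1 and Tyms gave 0.22, 0.27 and 0.02, and E2f1 gave 0.04.

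Other genes of the pathway came from lists of known members. From a list of 35 further mitotic genes, 34 were tested and 9 rose in liver with PTP-r (mean of both sexes), with a median of 0.29. They included Ckap2l, a spindle protein, at 1.19 (SE 0.222, edgeR adjusted p = 0.00129), the cytokinesis scaffold Anln at 0.81 (SE 0.167, edgeR adjusted p = 0.00304), and Dlgap5, which stabilises spindle fibres, at 0.82 (SE 0.214, edgeR adjusted p = 0.0189). From 30 further replication genes, 29 were tested and 4 rose, Uhrf1 at 0.73 (SE 0.171, edgeR adjusted p = 0.00841), Brca1 at 0.50 (SE 0.127, edgeR adjusted p = 0.0163), Chaf1b at 0.60 (SE 0.156, edgeR adjusted p = 0.0177) and Asf1b at 0.71 (SE 0.202, edgeR adjusted p = 0.0299), with a median of 0.06. These 4 act in DNA methylation upkeep, repair and chromatin assembly behind the fork rather than in the helicase. None of 25 further G1 cyclins, kinases and E2F and Rb family genes passed with edgeR. Of 21 CDK inhibitors and p53 targets tested, Tob1, an antiproliferative gene, fell at -0.30 (SE 0.081, edgeR adjusted p = 0.0245), and Pkmyt1, which holds Cdk1 back, rose at 0.55 (SE 0.156, edgeR adjusted p = 0.0313). Over all genes tested 5.18% were called higher and 2.4% lower, and the counts for this last list are near those shares.

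Markers of other cells moved in liver too. Of the 6 neutrophil markers 3 were tested and all 3 rose, and the summed level did not overlap between groups, at 3.74 to 5.27 CPM under vehicle and 5.59 to 9.03 CPM with PTP-r in females, and at 1.70 to 3.04 and 4.74 to 7.10 CPM in males, where Ly6g was at 0. Of 5 lipid-associated macrophage markers 3 rose, the sum lying at 45.1 to 56.5 and 48.7 to 66.3 CPM in females and at 37.9 to 47.1 and 50.9 to 65.9 CPM in males. Of 7 general macrophage markers 3 rose and 1 fell, at 133.6 to 241 and 155.9 to 235 CPM in females and 59.3 to 105.5 and 97.7 to 194 CPM in males. Of 5 Kupffer cell markers 2 rose, none of 8 T and NK cell markers passed with edgeR, and 3 of 6 endothelial markers fell. Of 5 hepatocyte markers 1 rose. The part of these cells in the mitotic change was not tested.

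Female and male livers under vehicle differed in 13 members. Of the mitotic members 8 were higher in females and 1 was lower, and of the G1/S and replication members 1 was higher and 3 were lower, where 19.3% of genes were called higher and 17.4% lower. The G1/S and replication counts are near or below those shares. Ccnd1 was higher in females at 1.79 (SE 0.212, edgeR adjusted p = 1.06e-06), and the groups did not overlap. E2f1 was lower in females at -0.92 (SE 0.124, edgeR adjusted p = 6.18e-06), with 1.67 to 2.76 (median 2.27) CPM in females and 3.89, 4.52, 5.41, 3.32 and 3.74 CPM in males. Rrm2, the small subunit of ribonucleotide reductase, was lower too at -0.83 (SE 0.18, edgeR adjusted p = 0.000981), with 1.53 to 2.6 (median 2.39) CPM in females and 3.5, 4.2, 5.03, 2.83 and 4.98 CPM in males. Neither gene's groups overlapped. Pcna was lower in females at -0.21 (SE 0.0717, edgeR adjusted p = 0.0236).

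On the mitotic side, Bub1b was higher in female livers at 0.72 (SE 0.22, edgeR adjusted p = 0.0132), without overlap. Mki67 at 0.86 (SE 0.288, edgeR adjusted p = 0.0232), Kif23 at 0.81 (SE 0.272, edgeR adjusted p = 0.0224) and Ccnb1 at 1.58 (SE 0.558, edgeR adjusted p = 0.0297) were higher with overlapping groups, as were Ndc80, Nusap1, Top2a and Prc1. Aurka went the other way at -0.79 (SE 0.224, edgeR adjusted p = 0.00794), a call lost with unstranded counts, where the difference was -0.10 (edgeR adjusted p = 0.702). Nusap1 and Prc1 lost their calls with unstranded counts too. Of 11 fits that left out 1 library, Prc1 kept its call in 4, and Top2a and Ccnb1 in 5 each. Mki67, Kif23, Nusap1 and Ndc80 kept theirs in 7 to 9, and Bub1b and Aurka in all 11. The count of 13 was 7 without female vehicle library 10 and 8 without male vehicle library 12. All 7 general macrophage markers, 7 of 8 T and NK cell markers and 6 of 6 B and plasma cell markers tested were higher in female vehicle livers, as were 4 of 5 Kupffer cell and 4 of 6 endothelial markers. Of 7 erythroid precursor markers tested 4 were higher and 1 lower, the list summing to 242 to 576 CPM in females and 228 to 280.5 CPM in males, and 3 of 5 hepatocyte markers were lower. The part of these cells was not tested. Library 10 was the female vehicle liver highest in B and plasma cell markers, at 202 CPM against a group median of 72.7 CPM.

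In WAT the sexes stood far apart, and in 1 direction. Under vehicle 27 of 28 mitotic and 13 of 16 G1/S and replication members were lower in females, and none was higher, where 13.3% of genes were called lower and 13.6% higher. The median log2 difference was -1.54 over the mitotic and -0.91 over the G1/S and replication members, against 0.03 over all genes tested. The groups did not overlap for 22 mitotic and 11 G1/S and replication members. Overlap was not counted over all genes, so these 2 counts have no share to be set against. The members that did not pass were Cenpe at -0.84 (SE 0.334, edgeR adjusted p = 0.0659), E2f1 at -0.13 (SE 0.143, edgeR adjusted p = 0.545) and the E-type cyclins Ccne1 and Ccne2.

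Mki67 lay at 3.99 to 13.6 (median 8.61) CPM in female and at 41.8, 39.6, 26.4, 21.7 and 25.2 CPM in male vehicle WAT, a difference of -1.82 (SE 0.394, edgeR adjusted p = 0.00193). Top2a lay at 4.5 to 11.6 (median 8.63) CPM in females and at 37.8, 34.3, 23.3, 16.1 and 27.6 CPM in males, a difference of -1.76 (SE 0.372, edgeR adjusted p = 0.00163). In both genes the lowest male library was above the highest female one. Birc5 lay at 1.1 to 3.07 (median 2.21) CPM in females and 11.7, 11.5, 6.77, 4.76 and 8.33 CPM in males, also apart, at -1.93 (SE 0.351, edgeR adjusted p = 0.000517). Ccnb1 lay at 0.822 to 2.6 (median 1.86) CPM in females and 9.66, 7.03, 4.77, 3.56 and 8.55 CPM in males, at -1.94 (SE 0.398, edgeR adjusted p = 0.00133). Cdk1 lay at 2.7 to 9.5 (median 5.2) CPM in females and 14.7, 14, 7.05, 6.56 and 10.4 CPM in males, where the groups overlapped, at -0.95 (SE 0.322, edgeR adjusted p = 0.033).

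Replication genes were lower in female WAT too. Mcm5, a helicase subunit, lay at 5.88 to 9.24 (median 8.25) CPM in females and 29.1, 25.4, 18.9, 14.6 and 23.1 CPM in males, a difference of -1.52 (SE 0.249, edgeR adjusted p = 0.000242). Rrm2 lay at 2.35 to 4.29 (median 3.72) CPM and 15.2, 14.1, 8.4, 8.15 and 11.5 CPM, a difference of -1.75 (SE 0.307, edgeR adjusted p = 0.000393). Tk1 lay at 0.978 to 3.18 (median 2.68) CPM and 16.1, 13.3, 9.95, 7.02 and 12.8 CPM, a difference of -2.29 (SE 0.422, edgeR adjusted p = 0.000578), which was -1.42 with unstranded counts. All 3 kept the sexes apart without overlap. Mcm6 at -1.12, Mcm2 at -1.10, Cdc6 at -0.95, Pcna at -0.87 and Ccnd1 at -0.77 were lower in females as well. Pcna lay at 33.7 to 38.8 (median 35.6) CPM in females and 81.2, 69.4, 55.3, 49.6 and 73.6 CPM in males, so the female libraries kept within a narrow band.

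**Figure D3:**
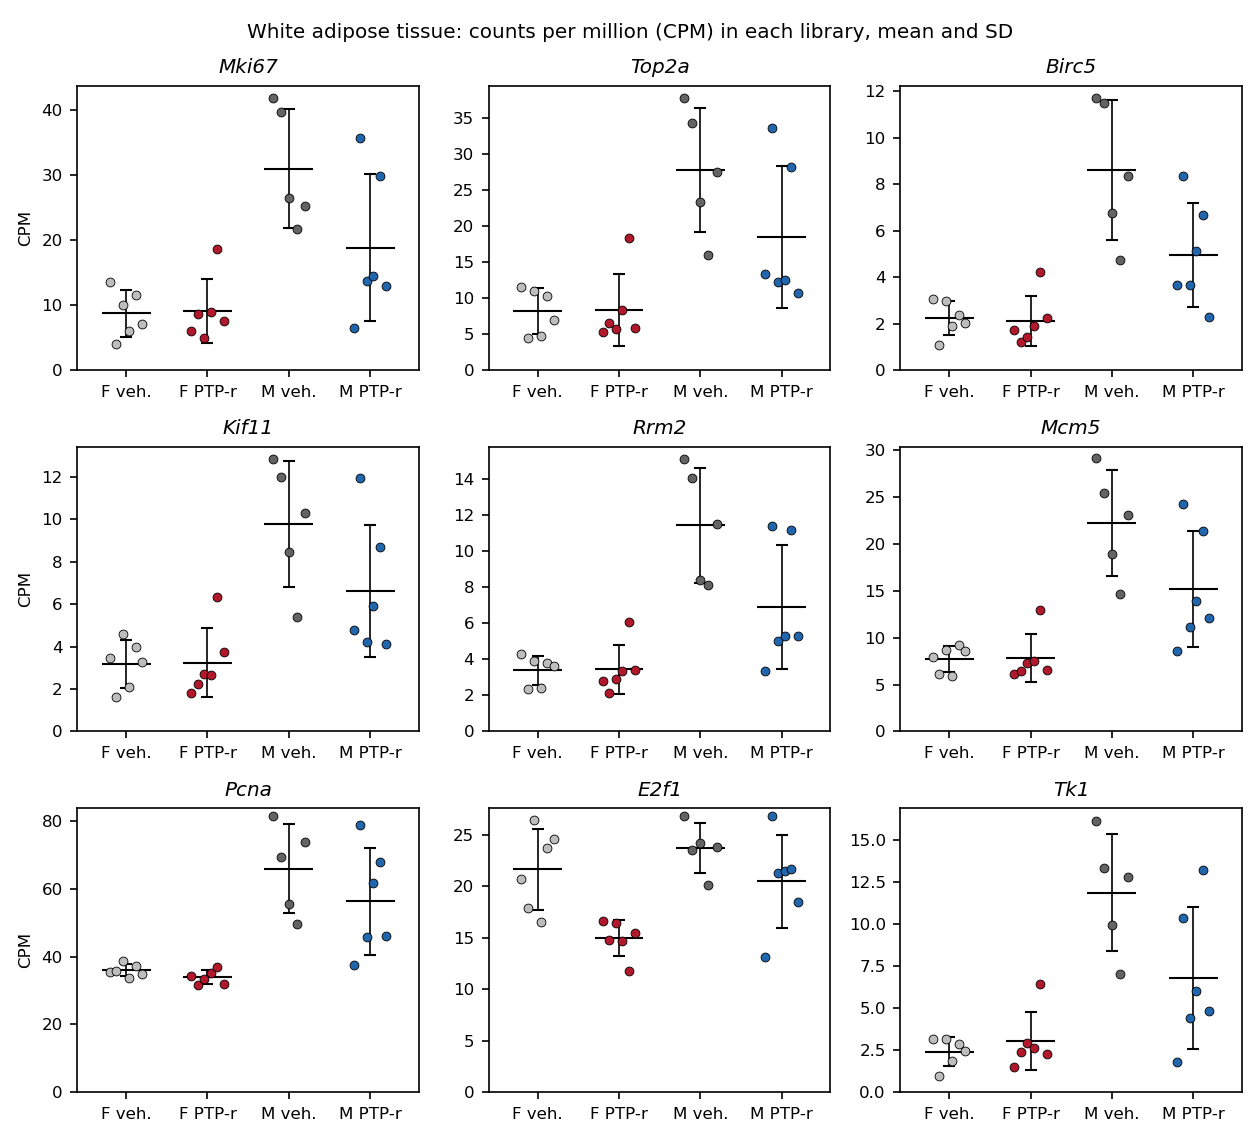
CPM of 9 members in each WAT library of females (F) and males (M) under vehicle (veh.) or PTP-r; points are libraries, lines are means and bars are SD (n = 6, and 5 for male vehicle). Male vehicle WAT is above female vehicle WAT for all shown except E2f1, and in Mki67 and Top2a 1 female PTP-r library (9) stands above its group.

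From the further genes, 30 of 35 mitotic genes were lower in female WAT and 1, Pttg1, was higher, and 25 of 30 replication genes were lower. Racgap1, the partner of Kif23 in cytokinesis, was lower at -1.41 (SE 0.232, edgeR adjusted p = 0.000257), and Brca1 at -2.07 (SE 0.349, edgeR adjusted p = 0.000308). Of 25 G1 cyclins, kinases and E2F and Rb family genes 4 were lower and 3 higher, E2f8 being lower at -2.10 (SE 0.359, edgeR adjusted p = 0.00033) and Ccnd3 higher at 0.35 (SE 0.0832, edgeR adjusted p = 0.00362). Of 22 inhibitors and p53 targets 5 were lower, among them Mdm2 at -0.54 (SE 0.0823, edgeR adjusted p = 0.000136), and 3 higher, among them Gadd45a at 0.65 (SE 0.127, edgeR adjusted p = 0.000882). Over all genes tested 13.3% were called lower and 13.6% higher. The counts for these last 2 lists are near those shares, the 5 lower inhibitors being somewhat above.

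Macrophage markers differed between the sexes of WAT as well. All 5 lipid-associated macrophage markers (Trem2, Gpnmb, Cd9, Spp1 and Lgals3) were lower in females, their sum lying at 123 to 519 CPM in female and at 1094 to 2930 CPM in male vehicle WAT. Of 7 general macrophage markers 6 were lower in females, at 588 to 1364 and 1290.0 to 3099 CPM. None of 8 T and NK cell markers and none of 6 B and plasma cell markers tested passed with edgeR. All 3 mesothelial markers were higher in females, at 54.9 to 325 CPM in sum against 28.1 to 82.6 CPM in males. Both epididymis markers tested were lower, the list summing to at most 0.0383 CPM in females and to 0.946 to 56.2 CPM in males. Of 5 adipocyte markers 2 were higher and 1 lower, and no erythroid precursor marker passed. Male vehicle library 3 was highest in its group for 25 of 28 mitotic members and for the lipid-associated macrophage sum, and library 10 lowest for 27 of 28 mitotic members. The part of these cells in the sex difference was not tested. Since the fat depot is not given, a difference in depot or dissection between the sexes cannot be told apart from one of sex.

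The sex difference of the mitotic genes was not the same in the organs. The comparison of the female minus male difference in liver with that in WAT was added after the values were seen, and the unstated depot bears on its WAT side. It passed for 24 of 28 mitotic members, all relatively higher in female liver, where 15.8% of genes were called higher and 11.5% lower. Of the G1/S and replication members 10 were called higher, and E2f1 lower at -0.77 (SE 0.19, edgeR adjusted p = 0.0022). Ccnd1 gave 2.58 (SE 0.278, edgeR adjusted p = 6.3e-09), Tk1 2.75 (SE 0.458, edgeR adjusted p = 1.57e-05), Bub1b 1.88 (SE 0.316, edgeR adjusted p = 1.95e-05) and Mki67 2.70 (SE 0.511, edgeR adjusted p = 9.96e-05).

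**Figure D4:**
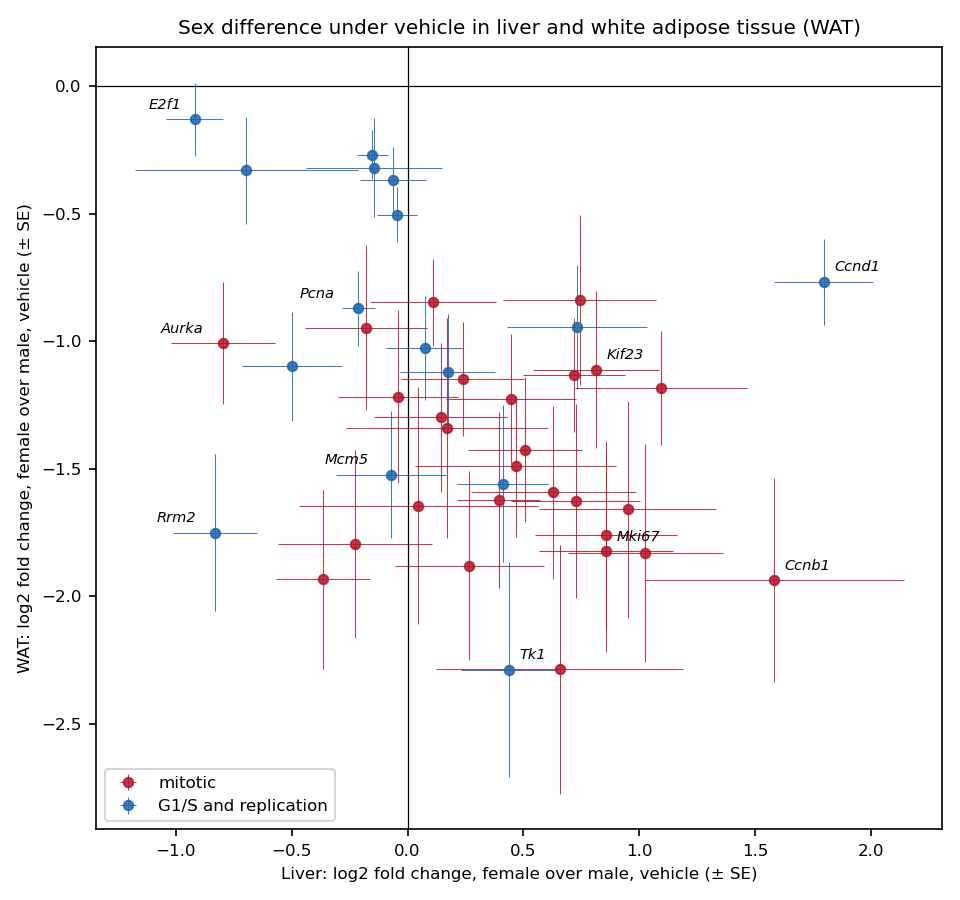
Log2 fold change of females over males under vehicle, in liver (horizontal axis) and WAT (vertical axis), for the 43 members tested in both organs; bars are SE, red points are mitotic and blue points G1/S and replication members. All points lie below 0 in WAT, and 22 of 27 mitotic members lie above 0 in liver.

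With PTP-r, few members changed in WAT. In females none passed with edgeR, as was so for 0 of all 17765 genes tested (0%). An unadjusted p under 0.05 was found for 1 mitotic and 3 G1/S and replication members, and for 2909 of all genes tested. DESeq2 and limma voom called 1 member each, a G1/S and replication member that was lower. In males none passed with edgeR, where 0.462% of genes were called higher and 0.411% lower. There 9 mitotic and 4 G1/S and replication members had an unadjusted p under 0.05, as did 3698 of all 17765 genes. DESeq2 called 3 members lower in males, and limma voom with sample quality weights 21, of which 16 were mitotic. All 28 mitotic members had a fold change below 0 in males, with a median of -0.50.

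As the mean of both sexes 4 members passed in WAT, where 3.65% of genes were called higher and 3.43% lower. This small count is near or little above those shares, so the calls given next do not set the list apart from other genes. E2f1, the activating E2F, fell at -0.37 (SE 0.0994, edgeR adjusted p = 0.0316), with 16.5 to 26.4 (median 22.2) CPM in female vehicle, 11.8 to 16.6 (median 15.1) CPM in female PTP-r, 26.8, 23.5, 24.2, 20.1 and 23.8 CPM in male vehicle and 13.1 to 26.8 (median 21.4) CPM in male PTP-r WAT. In females 5 of 6 PTP-r libraries lay below every vehicle library, and in males the groups overlapped more widely, with 2 of 6 below. Ccnd1 fell at -0.41 (SE 0.117, edgeR adjusted p = 0.0386), with 35.8 to 55.5 (median 40.9) CPM and 27.9 to 43.3 (median 32.8) CPM in females and 79.6, 90.8, 53.4, 62.6 and 73.1 CPM and 34.3 to 68.5 (median 48.8) CPM in males, vehicle first. Ube2c fell at -0.43 (SE 0.119, edgeR adjusted p = 0.036). Mcm7, a helicase subunit whose introns hold the Mir106b, Mir93 and Mir25 hairpins, rose at 0.22 (SE 0.0661, edgeR adjusted p = 0.0474), with 22.5 to 24.9 (median 23.6) CPM and 24.9 to 32.8 (median 27.8) CPM in females, where 5 of 6 PTP-r libraries were above every vehicle library. In males Mcm7 read 30.15, 28.18, 26.55, 26.27 and 31.01 CPM under vehicle and 27.36 to 41.96 CPM with PTP-r, and the groups overlapped. The highest was male PTP-r library 1, which carried epididymis markers. Each of these 4 calls was lost in at least 9 of 23 fits that left out 1 library. Mcm7 kept its call in 5 of the 23, and in 3 of 10 other settings. The count fell to 0 without any one of female vehicle libraries 10 and 12 and male vehicle libraries 3, 4 and 12, to 1 without female PTP-r library 1, 4 or 9 or female vehicle library 6, and to 2 without female PTP-r library 5, male vehicle library 9 or male PTP-r library 6.

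Mki67 and Top2a show the spread in WAT. With PTP-r, Mki67 lay at 4.99 to 18.7 (median 8.07) CPM in females and 6.55 to 35.6 (median 14.1) CPM in males, a mean difference of -0.33 (SE 0.27, edgeR adjusted p = 0.44). Top2a lay at 5.28 to 18.4 (median 6.22) CPM in females and 10.7 to 33.7 (median 13) CPM in males, a mean difference of -0.28 (SE 0.255, edgeR adjusted p = 0.486). Both overlapped their vehicle groups in each sex, although 4 of 6 male PTP-r libraries lay below every male vehicle library. Cdk1 gave -0.46 (SE 0.223, edgeR adjusted p = 0.184) and Ccnb1 -0.33 (SE 0.273, edgeR adjusted p = 0.442). In the replication arm Mcm6 gave -0.16 (SE 0.156, edgeR adjusted p = 0.504), Mcm2 -0.11 (SE 0.147, edgeR adjusted p = 0.639), Pcna -0.16 (SE 0.102, edgeR adjusted p = 0.32), Cdc6 -0.28 (SE 0.168, edgeR adjusted p = 0.279) and Ccne1 -0.42 (SE 0.146, edgeR adjusted p = 0.0796).

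Female PTP-r library 9 stood apart in WAT. It was highest in its group for 27 of 28 mitotic members, which summed to 168 CPM there and to between 68.5 and 82.9 CPM in the other 5 libraries. Without it the median mitotic fold change in females moved from -0.07 to -0.38, and 26 of 28 members lay below 0 instead of 18. Still no member passed with edgeR. Leaving out the libraries with markers of other tissues moved that median the other way, to 0.15, with 20 of 28 members above 0. In males the same setting moved the median from -0.50 to -0.99. Library 9 also had the highest summed macrophage markers of its group, at 799 CPM against a median of 630.3 CPM, and the highest T and NK cell markers, at 17.96 CPM against 8.09 CPM. It was also highest for the stellate and fibroblast list, at 3534 CPM where no other library of the group passed 2871, and for erythroid precursor markers, at 769 CPM. It was lowest for lipid-associated macrophage markers, at 140.8 CPM, for endothelial markers, at 784.5 CPM, and for adipocyte markers, at 15920 CPM where the others had 19990 to 24020. The part of these cells was not tested. Among male vehicle libraries the mitotic sum ran from 165 to 355 CPM, and among male PTP-r libraries from 116 to 284 CPM.

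The female effect minus the male effect passed for no member in WAT with edgeR, DESeq2 or limma voom, nor for any gene with edgeR (0%). An unadjusted p under 0.05 was found for 2 mitotic members and 1 G1/S and replication member, and for 1520 of all 17765 genes.

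The lists of further genes gave few calls in WAT, as the mean of both sexes. Of 22 CDK inhibitors and p53 targets, Cdkn1c (p57) rose at 0.51 (SE 0.0945, edgeR adjusted p = 0.00677) and Cdkn1b (p27) at 0.29 (SE 0.0704, edgeR adjusted p = 0.0213), while Cdkn2b (p15) fell at -0.72 (SE 0.145, edgeR adjusted p = 0.00934). Of 25 further G1 cyclins, kinases and E2F and Rb family genes, Ccnd2, cyclin D2, fell at -0.29 (SE 0.0844, edgeR adjusted p = 0.0412) and Ccnh, the cyclin of the CDK-activating kinase, at -0.22 (SE 0.0541, edgeR adjusted p = 0.0249). Of 35 further mitotic genes Spc25 fell at -1.01 (SE 0.246, edgeR adjusted p = 0.0221), and none of 30 replication genes passed with edgeR. Over all genes tested 3.65% were called higher and 3.43% lower, so these small counts are near or little above those shares. Among the macrophage markers, 1 of 7 general ones fell and none of the 5 lipid-associated ones passed.

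The effect of PTP-r on mitotic genes differed between the organs. The liver effect was higher than the WAT effect for 15 of 28 mitotic members and for Ccnd1, and lower for none, where 2.99% of 19135 genes were called higher and 2.4% lower. The median difference was 1.09 over the mitotic members, 0.33 over the G1/S and replication members and -0.06 over all genes tested. Kif23 differed by 1.32 (SE 0.286, edgeR adjusted p = 0.00488), Tpx2 by 1.55 (SE 0.34, edgeR adjusted p = 0.00528), Cdk1 by 1.29 (SE 0.295, edgeR adjusted p = 0.00729), Cenpe by 1.42 (SE 0.325, edgeR adjusted p = 0.00759) and Aurkb by 1.47 (SE 0.345, edgeR adjusted p = 0.00928). Ccnd1 differed by 0.71 (SE 0.19, edgeR adjusted p = 0.0207), its own changes being 0.32 in liver and -0.41 in WAT. For Kif23 those were 1.07 in liver and -0.28 in WAT, and for Cdk1 0.85 and -0.46.

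The count of 16 members was 9 without any one of female PTP-r liver 5, male vehicle liver 10, male PTP-r liver 11 and male vehicle WAT 3. It was 10 without female vehicle WAT 6 or male vehicle WAT 4. Of the further genes, 8 of 35 mitotic and 3 of 30 replication genes had a higher effect in liver, Anln at 0.91 (SE 0.20, edgeR adjusted p = 0.00535) and Uhrf1 at 0.92 (SE 0.254, edgeR adjusted p = 0.0252) among them. Of the inhibitors, Cdkn1c had a lower effect in liver at -0.91 (SE 0.16, edgeR adjusted p = 0.00075).

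**Figure D5:**
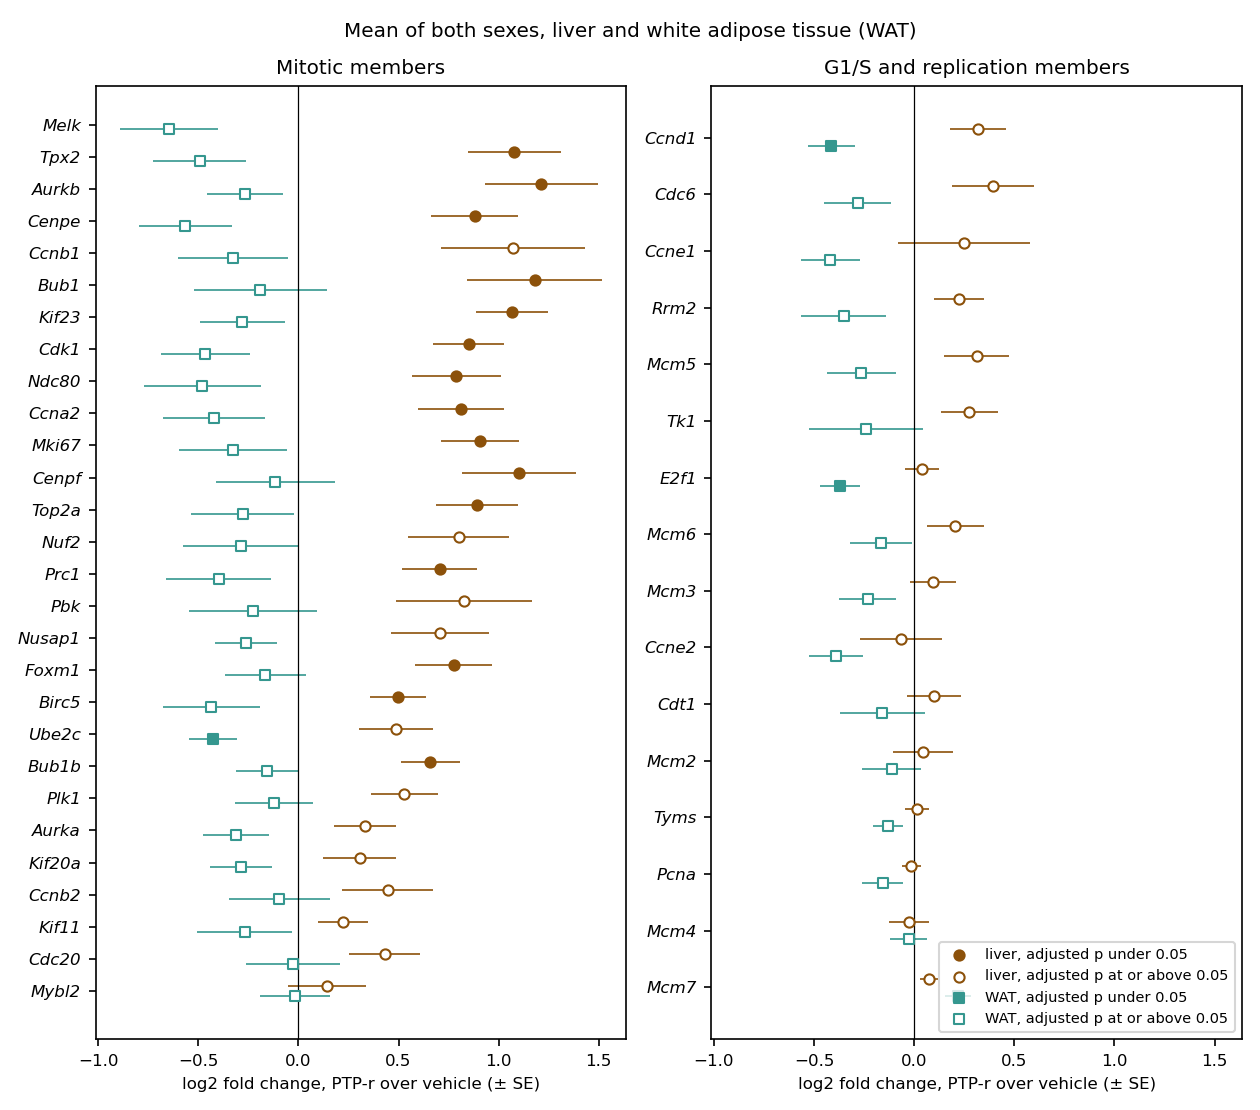
Log2 fold change of PTP-r over vehicle, mean of both sexes, for each member in liver (circles) and WAT (squares), with SE bars; filled symbols passed an edgeR adjusted p of 0.05. The 15 filled liver symbols are all mitotic and all above 0, and 3 of the 4 filled WAT symbols lie below 0. Melk was not tested in liver.

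Promoter elements can be set beside the liver result without a test. Of the 15 mitotic members that rose, 11 had a promoter window and 9 of these held a CHR, against 6 of the 11 mitotic members with a window that did not pass or were not tested. A CCAAT box stood in 9 and 7 of them. The 2 with no CHR among those that rose were Cenpe and Birc5.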

How the data were processed

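RNA was sequenced from liver and WAT in 46 libraries. The authors aligned reads with STAR 2.4.0i to mm10, per the submitters' processing notes, which also name HTSeq; the annotation is not given in the sources used here. The deposited files hold raw counts per gene in 3 columns, and the stranded column 4 was used, since it held 96.0 to 96.5% of the stranded sum. The 4 totals that name no gene were left out (18.42 to 28.92% of a library). Of 55487 identifiers, 55227 matched GENCODE M21.

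Counts were tested with edgeR 4.0.16 (quasi-likelihood, TMM, filter at a minimum count of 10 and total of 15) under R 4.3.3, in a liver fit, a WAT fit and a fit of both, with Benjamini-Hochberg adjustment at 0.05. Expression levels are TMM-scaled CPM per organ, and RPKM where genes or organs are compared. DESeq2 1.42.0, limma 3.58.1 (voom), DESeq2 size factors, other filters, unstranded counts, title numbers as a term, fits of only the groups compared, a replicate block and leaving out each library were the alternatives. The fits were tested on simulated data. Intervals and p-values rest on 5 or 6 libraries a group, with 20266425 to 57518893 counts each.

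The members and lists were chosen with earlier results of these data known. The named genes were Mki67, Top2a, Cdk1, Ccnb1, Mcm2, Mcm6, Pcna, Ccnd1, Ccne1 and Cdc6 in each organ, and the called members with the smallest p in each comparison, up to 10 mitotic and 6 G1/S and replication, of which the text prints a part; Aurka, Plk1, Melk and other members singled out beyond these were named after their values were seen. The organ difference of the sex difference and both settings that leave out libraries by their markers were added after the data were seen.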

Additional observations from a re-analysis of the deposited data

Results flagged for a closer look

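Single libraries stood far from their group in 35 of 304 pairs of member and group examined, by the gap to the nearest other library against the range of the group. The pairs came from the 38 members named with values in each library, chosen in part by small p-values. Chance alone marks about 1 group in 20, but pairs that share a library are not independent. Of these, 21 belonged to 1 library, female PTP-r 9 in WAT, which was the highest of its 6. In that library the CPM of the chromosome and spindle genes was 18.67 for Mki67, 18.36 for Top2a, 4.599 for Cenpf, 3.616 for Cenpe, 7.036 for Kif23, 8.884 for Prc1, 7.469 for Tpx2 and 5.503 for Nusap1. The kinases, cyclins and checkpoint genes read 7.469 for Cdk1, 8.491 for Ccna2, 3.813 for Ccnb1, 4.403 for Plk1, 3.263 for Aurka, 4.049 for Aurkb, 4.206 for Birc5, 1.848 for Bub1 and 10.73 for Bub1b. Replication genes read 12.93 for Mcm5, 25.55 for Mcm6, 6.093 for Rrm2 and 6.407 for Tk1.

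In liver the library standing apart was mostly another one for each gene. Mitotic members read 0.6178 CPM for Plk1 in male vehicle 9, 1.602 for Kif20a in male PTP-r 7, 0.6226 for Melk in female PTP-r 5 and, at the low end, 0.2458 for Foxm1 in male vehicle 10. Female PTP-r 11 had 129.9 CPM of Ccnd1 and 1.509 of Ccne1, and was lowest for Mcm7 at 11.95, whereas male PTP-r 6 was highest for Mcm7 at 15.75 and for Rrm2 at 6.339. Female vehicle 7 had 21.82 CPM of Pcna and the lowest Rrm2 at 1.531. Tk1 read 48.25 CPM in male vehicle 10, Tyms 4.511 in female vehicle 6 and Cdc6 0.118 in female PTP-r 4, Tyms and Cdc6 being at the low end.

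The effect of PTP-r differed between liver and WAT for 16 members by the edgeR test of that difference. In log2 units, liver minus WAT, the mitotic ones were Aurkb 1.47, Bub1b 0.80, Ccna2 1.21, Cdk1 1.29, Cenpe 1.42, Foxm1 0.93, Kif23 1.32, Melk 1.66, Mki67 1.21, Ndc80 1.26, Nusap1 0.95, Prc1 1.08, Top2a 1.15, Tpx2 1.55 and Ube2c 0.89. The 1 G1/S member was Ccnd1, at 0.71.

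The sex difference under vehicle differed between the organs for 35 members by the edgeR test. In log2 units, liver minus WAT, the mitotic ones were Aurkb 1.97, Birc5 1.60, Bub1 2.97, Bub1b 1.88, Ccna2 2.16, Ccnb1 3.54, Ccnb2 1.58, Cdc20 1.20, Cenpe 1.60, Foxm1 1.46, Kif11 2.04, Kif20a 1.41, Kif23 1.95, Melk 2.54, Mki67 2.70, Mybl2 1.69, Ndc80 2.88, Nuf2 2.64, Nusap1 2.30, Plk1 1.95, Prc1 2.37, Top2a 2.64, Tpx2 2.24 and Ube2c 0.98. The G1/S and replication members higher on that measure were Ccnd1 2.58, Cdc6 1.70, Cdt1 1.99, Mcm3 1.12, Mcm5 1.47, Mcm6 1.32, Pcna 0.68, Rrm2 0.94, Tk1 2.75 and Tyms 0.48, and E2f1 was lower at -0.77.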

How the results depend on the processing

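For members called in the main fit, leaving out 1 library kept the call in 3199 of 3524 cases and reversed none. The other settings kept it in 1685 of 1796 cases. Members not called in the main fit are not in these counts. The cases pool all comparisons, and differences between organs and between sexes under vehicle hold most of them. Calls for PTP-r were less stable in male liver, where 3 to 9 members were called leaving out 1 library. The same held as the mean in WAT, at 0 to 5, but less so as the mean in liver, at 13 to 17. The 1 reversal was Aurka between liver and WAT, at 0.51 with unstranded counts; those hold 2381 liver reads for it and the stranded ones 482. Counts of members called moved by over 1.5 times as follows, and the cause was not tested except where a filter or fewer libraries made it. The share of all genes called in each setting is not given beside them, so a higher count may reflect more calls over all genes.

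In male liver (9 with the main test), the count was 5 without an expression filter, 5 at 1 CPM in 5 libraries, 5 with only the groups compared, 3 without the library highest in lymphocyte markers and 3 to 9 leaving out 1 library. As the mean of both sexes in liver (15), it was 9 at 1 CPM in 5 libraries, which tested fewer members, and 13 to 17 leaving out 1 library. In female liver DESeq2 gave 2. For sex in liver (13) it was 7 without the library highest in lymphocyte markers and 7 to 15 leaving out 1 library. In female WAT (0) it was 1 with DESeq2, 1 with voom and 1 without libraries with markers of other tissues. In male WAT (0) it was 3 with DESeq2, 21 with voom and 0 to 1 leaving out 1 library. As the mean in WAT (4) it was 11 with voom, 0 without a filter, 0 without libraries with markers of other tissues, 1 without the library highest in lymphocyte markers and 0 to 5 leaving out 1 library. For the liver minus WAT effect (16) it was 31 with voom, 8 without a filter and 9 to 22 leaving out 1 library. For sex in WAT it stayed at 36 to 41 and for the organ difference of the sex difference at 33 to 38.

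With the replicate block, no member was called in male liver (0), as the mean in liver (0) or as the mean in WAT (0), and 14 were for the liver minus WAT effect. The mitotic median under the block was 1.57 instead of 0.93 in male liver and 1.06 instead of 0.79 as the liver mean. For the female minus male effect that median was -1.17 instead of -0.22 in liver and 1.01 instead of 0.45 in WAT. Pairing was not established: correlations of same-numbered libraries ran from -0.305 to 0.061 in liver and from -0.102 to 0.26 in WAT, and from -0.082 to 0.194 between organs, where 5 of 23 were over 0.1 and 9 libraries correlated best with their own number. Each title number has the same sex and treatment in both organs, and whether equal numbers mark 1 mouse is not stated. The sex difference within an organ could not be fitted with the block. Low reads limit liver most, where Bub1 had a median of 8 reads and Cdc6 of 7.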
